A study of Mus musculus with 8 samples.

Results

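A set of 40 genes of G2 phase and mitosis was followed in long-term hematopoietic stem cells (LT-HSC) of aged mice, measured cell by cell. The genes were taken from a fixed list of cyclins and their partners, mitotic kinases, checkpoint and ubiquitin ligase factors, kinetochore proteins, spindle and cytokinesis proteins, chromosome proteins and proteins of the nuclear envelope and heterochromatin. All 40 had a row in the tables, among 18174 gene symbols in all. Of these, 30 were treated as core mitotic genes, and the other 10 (Hmgb2, Bub3, Smc4, Smc2, Ckap5, Lbr, Cks1b, Tubb4b, Tmpo and Cbx5) as genes that also serve cells outside mitosis. Bone marrow came from untreated wild-type C57BL/6J males aged 18 months, with the bones pooled. The sorted cells carried Kit, Sca1 and CD150, lacked lineage markers, CD34 and CD48, and were taken either with the surface protein Dlk1 (Dlk1+, 4 libraries) or without it (Dlk1-, 4 libraries). Their RNA was counted with mCEL-Seq2, a plate-based method that tags the 3' end of each polyadenylated transcript with a barcode for its cell and a random molecular tag (unique molecular identifier, UMI), so that counts are not scaled by gene length.

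LT-HSC of the adult marrow are mostly quiescent and enter the cell cycle rarely. A cell that does so first induces S phase genes for DNA replication and then, in G2, the mitotic genes: cyclins A and B activate Cdk1, the kinases Plk1, Aurka and Aurkb build the spindle and correct its attachments, and Cdc20 and Ube2c direct the destruction of cyclins that ends mitosis. Transcripts of these genes peak in G2 and M phase, whereas chromatin and cytoskeleton genes such as Cbx5 and Tubb4b are transcribed in non-dividing cells too.

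A barcode counted as a cell when it held at least 1000 transcripts, which left 541 cells. The Dlk1- libraries 1 to 4 kept 96, 36, 95 and 94 cells and the Dlk1+ libraries 86, 27, 26 and 81. Summed transcripts per library ranged from 39073 in Dlk1+ replicate 3, where 1 transcript equals 25.6 CPM (counts for every 1000000 transcripts of the library), to 517559 in Dlk1- replicate 1. Dlk1+ replicate 3 was shallow, with a median of 1300 transcripts per cell against 3421 to 5584 in the other 7 libraries. The sorts lay on different sets of barcodes (1 to 96 for Dlk1+, the next 96 for Dlk1-), so barcode set and sort cannot be told apart. Within a sort the libraries used the same barcode numbers (96 of 96 numbers of the Dlk1- cells and 84 of 86 of the Dlk1+ cells occurred in 2 or more libraries), and 6 of 31 and 1 of 16 barcode numbers of the cells with several mitotic genes did so. Which animals stand behind a library is not labelled, and p-values measure only the spread between libraries, which may be technical. The stem cell label was checked with 12 marker genes, and 3 or more of them were found in 91.3% of the cells with few or no mitotic genes. This check leans on widely found markers and on depth. Hlf, Kit and Meis1 had a UMI in 82.1%, 77.8% and 72.1% of all kept cells. Ly6a, Procr, Fgd5, Slamf1, Hoxb5 and Ctnnal1 had one in 41.0%, 37.9%, 26.4%, 24.8%, 18.1% and 13.1%. With cells reduced to the same number of UMIs, the share with 3 or more markers was 81.0%. It was 53.7% in the cells with several mitotic genes.

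Mitotic transcripts were rare and packed into few cells. Of the 541 cells, 298 held no UMI of any core gene and 243 held at least 1. A further step to 2 or more genes left 103 cells, and 56 cells (10.4%) held 3 or more. These 56 are called carriers here. They spanned a wide range, with a median of 8.5 core genes, 41 cells with 5 or more, 26 with 10 or more, 17 with 20 or more and 28 genes in the fullest cell. Carriers held 17.5% of all UMIs but 89.5% of the 2344 core UMIs, and 47.8% of the 2965 UMIs of the other 10 members.

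Depth moved with carrier status. Carriers had a median of 7819 transcripts against 4495 in the other 485 cells, and their median was the higher one in 8 of 8 libraries. After every cell was thinned to 2000 UMIs, which 44 cells did not reach (30 Dlk1+, 14 Dlk1-), 34 of 497 cells (6.84%) held 3 or more core genes, 25 held 5 or more, 12 held 10 or more and 0 held 20 or more. The ranges of core genes used below rest on all UMIs of a cell. Of the 4 cells with a very high transcript number 3 were carriers, and no doublet caller was run.

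Background counts were taken from barcodes that should hold no cell. On the unused barcodes of the 8 libraries (728, without the left-out numbers), 39 of 23663 UMIs were of core genes and 0 barcodes reached 3 core genes, which allows a share of up to 0.412% of such barcodes. The 485 other cells held 246 core UMIs, at 114 CPM, against 39 on the 728 unused barcodes, at 1648 CPM. The latter CPM is over only 23663 UMIs, against 2150224 in the other cells, so it is not the background level within a cell. The other 10 members had 44 UMIs on the unused barcodes and 1547 in the other cells. Since unused barcodes also held core UMIs, a single core UMI is given as a count and not read as a cycling cell. The intervals and limits given throughout cover counting error only.

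**Figure D1:**
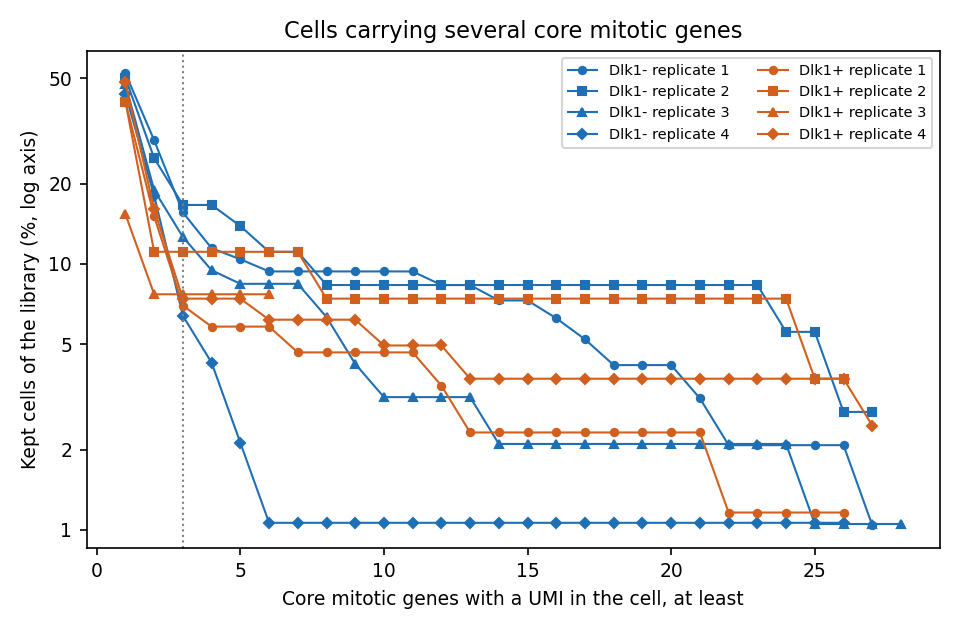
Share of kept cells (%, log axis) holding at least the number of core mitotic genes on the x axis, 1 line per library (blue Dlk1-, orange Dlk1+, marker shape for the replicate); the dotted line marks 3 genes, the carrier limit. A line ends where no cell of the library is left. At 3 genes the libraries lie between 6.38% and 16.7%. There Dlk1- replicates 1 to 3 lie above all Dlk1+ lines and Dlk1- replicate 4 below them.

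Each member was then measured in carriers and in other cells. For a core gene, carriers were defined by the other core genes only. The carrier ratio is the number of its UMIs in carriers divided by the number expected if carriers had the same share of their UMIs in the gene as the other cells of their library, with an exact 95% counting interval. A member counted as concentrated in carriers with 5 or more UMIs there and a ratio of at least 4. No member had a UMI in 50% or more of the cells, the level set for most LT-HSC. The count was 0 of 40, and the highest share was 46.8% for Tubb4b. The share of cells with a UMI depends on depth, so it sets no upper limit on the share of cells that express a gene. By contrast 36 of 40 members were concentrated in carriers, all 40 having 5 or more UMIs there, against 4.44% of the 8739 genes with so many UMIs in carriers. All 30 core genes were among them, as were 6 of the 10 other members. This describes how the genes co-occur, since the core genes also chose the carriers.

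**Figure D2:**
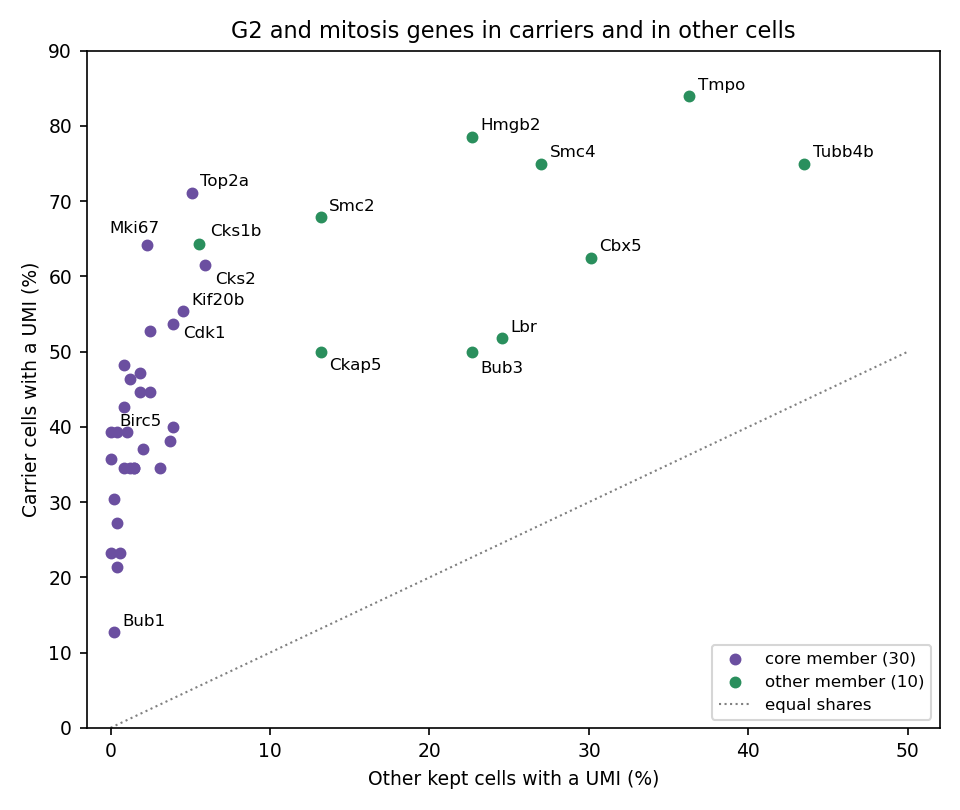
Share of carrier cells with a UMI (y axis, %) against the share of other kept cells with a UMI (x axis, %) for the 40 genes; purple points are the 30 core genes, green points the other 10, and the dotted line marks equal shares. Every gene lies above the line. Core genes stay at or below 5.93% on the x axis, while Tubb4b reaches 43.5% and Tmpo 36.3%.

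Among cyclins and their partners, Ccna2, the cyclin of S and G2 phase, had a UMI in 31 cells and a carrier ratio of 132 (50.3 to 495). Ccnb1 and Ccnb2, the cyclins that drive entry into mitosis, had ratios of 49.3 (22.5 to 128) and 76.8 (31.6 to 243). Processed pseudogenes of both are annotated in GENCODE, so that some of their reads may be shared. Cdk1, their kinase, was in 48 cells at a ratio of 18.6 (11.3 to 32). The small Cdk-binding protein Cks2 was in 61 cells at 20.8 (13.9 to 32.1), and its relative Cks1b in 63 cells at 11.9 (7.69 to 18.9). Cdk1 and Cks2 were also found outside carriers, in 3.90% and 5.93% of those cells, shares that are among the highest of the core genes.

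The mitotic kinases were scarce, with UMIs in 8 to 32 cells each. Plk1 had 42 of 43 UMIs in carriers (ratio 132, 22.4 to 5317) and was in 18 cells. Bub1 had 14 of 15 UMIs there and was in 8 cells, the fewest of the 40 genes (ratio 180, 27.4 to 7616). Aurkb, the kinase of the chromosomal passenger complex, had 32 of 34 (ratio 81.5, 20.8 to 702). Aurka, the centrosome kinase, had 25 of 28 and Ttk, a spindle checkpoint kinase, 16 of 18, at ratios of 39.4 (12 to 204) and 39.1 (9.19 to 350). Bub1b, another checkpoint protein, was found more often, in 32 cells at a ratio of 35.8 (15.1 to 103). With so few UMIs outside carriers, the order of these ratios cannot be read.

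Of the checkpoint and ubiquitin ligase genes, Ube2c, the E2 enzyme of the anaphase-promoting complex, had 125 of 135 UMIs in carriers (ratio 52.3, 27.5 to 112). Its activator Cdc20 had 45 of 52 (ratio 23, 10.3 to 60.5). Bub3, a checkpoint protein that also binds chromatin outside mitosis, differed: 130 of its 196 UMIs lay in other cells, 22.7% of other cells held one, and its ratio was 2.34 (1.71 to 3.17).

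Kinetochore genes were all concentrated. Birc5 (survivin, a subunit of the chromosomal passenger complex) had 67 UMIs in 22 cells, all of them carriers. Against the 3 counts that 0 allows, its ratio was at least 106. Nuf2 and Ndc80 encode partners in the complex that grips microtubules. Nuf2 had all of its 28 UMIs in carriers (ratio 44.1 against 3 counts, interval from 33.6). Ndc80 had 28 of 34 there (ratio 20.2, 8.20 to 59.6). For Birc5 and Nuf2 a count of 0 in 485 cells allows up to 0.619% of such cells with a UMI, which sets no limit on cells that express the gene below this depth. Cenpa, the centromeric histone, and the large kinetochore proteins Cenpe and Cenpf had ratios of 25.5 (14.4 to 48.0), 30.6 (15.7 to 66.5) and 27.0 (14.9 to 53.0).

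The spindle and cytokinesis genes spread more widely. Nusap1, a microtubule-binding protein, had 68 of 70 UMIs in carriers (ratio 128, 34.0 to 1075). The kinesin Kif2c had 20 of 20 (ratio 31.5 against 3 counts, interval from 23.3). The kinesin Kif11, which pushes spindle poles apart, stood at 43.8 (16.0 to 167), the actin-binding protein Anln at 33.3 (11.4 to 132) and Tpx2, which activates Aurka, at 29.5 (14.5 to 67.6). Lower ratios were found for the spindle protein Ckap2 (14.9, 7.90 to 30.2), the kinesins Kif20b (13.9, 8.70 to 23.1) and Kif23 (10.8, 6.26 to 19.2) and the centrosomal Tacc3 (7.06, 3.80 to 13.4), which was the lowest of the core genes. Ckap5, a microtubule polymerase, had a ratio of 4.61 (3.24 to 6.57) and an interval that reaches below 4. Tubb4b, a beta tubulin, was the most widely found member, in 253 cells, at a ratio of 3.15 (2.66 to 3.73). Processed pseudogenes of Tubb4b are annotated too.

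Chromosome genes held the most abundant core transcripts. Mki67, the proliferation antigen Ki-67, had 260 of 271 UMIs in carriers (ratio 162, 89.1 to 329) and Top2a, the topoisomerase that disentangles chromosomes, 254 of 284 (ratio 48.0, 32.8 to 72.7). Top2a was in 71.2% of carriers, the highest share of any core gene, and in 5.11% of other cells. Hmgb2, a chromatin architectural protein, had 367 of 511 UMIs in carriers (ratio 12.4, 10.2 to 15.1) but was also in 22.7% of other cells. The condensin subunits Smc2 and Smc4 had ratios of 6.19 (4.63 to 8.31) and 5.11 (4.13 to 6.33), and Smc4 was in 27.0% of other cells.

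Of the nuclear envelope and heterochromatin genes only Tmpo, a lamina-associated protein, passed the limit of 4, with 4.47 (3.68 to 5.41), an interval that includes 4. It was in 83.9% of carriers and in 36.3% of other cells. Lbr, the lamin B receptor, and Cbx5, heterochromatin protein 1 alpha, had the ratios nearest to 1, at 1.93 (1.40 to 2.63) and 1.68 (1.24 to 2.26). Just above the limit thus lay Tmpo and Ckap5, and just below it Tubb4b and Bub3.

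Promoter sequences are shown because the core genes moved together from cell to cell. Late cell cycle promoters are known for the CHR element, spelled TTTGAA here and bound by the DREAM and B-Myb complexes, and for CCAAT boxes, bound by NF-Y. RefSeq promoters of GRCm38.p6 (from 250 bases before to 50 after the start) were matched by symbol for 36 of the 40 members. Of their 39 windows, 19 had the first 20 bases after the start within the first 60 of a GENCODE transcript of the gene. For the rest the start was not matched in this way. There was no entry for Ccna2, Aurkb, Tpx2 and Smc4. Both motifs were searched on both strands, each on its own and with no match removed for overlapping another. TTTGAA was in 19 of 27 core genes (70.4%) and 8 of 9 other members (88.9%), against 20.2% of all 27025 genes with a window of this length. CCAAT was in 70.4%, 100% and 41.1%, and both motifs in 55.6%, 77.8% and 7.97%. The core genes and the more widely found members thus did not part by these letters, and a match is a description of sequence only.

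The first lines below are 5 core genes with both motifs within 120 bases before the start, then Birc5, all of whose UMIs lay in carriers, and 4 other members that ran from a high to a low carrier ratio. Each reads 5′ to 3′ along the gene's strand and ends at the base before the start. Capitals mark TTTGAA and CCAAT on this strand, or TTCAAA and ATTGG where the match is on the opposite one.
Ube2c, chr2:164769809-164769928, plus strand: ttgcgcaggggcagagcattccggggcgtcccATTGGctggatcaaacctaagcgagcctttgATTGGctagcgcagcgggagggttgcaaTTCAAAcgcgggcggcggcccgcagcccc
Kif11, chr19:37376262-37376381, plus strand: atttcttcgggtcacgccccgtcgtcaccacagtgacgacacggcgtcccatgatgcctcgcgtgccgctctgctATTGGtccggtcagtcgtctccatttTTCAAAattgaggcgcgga
Top2a, chr11:99024190-99024309, minus strand: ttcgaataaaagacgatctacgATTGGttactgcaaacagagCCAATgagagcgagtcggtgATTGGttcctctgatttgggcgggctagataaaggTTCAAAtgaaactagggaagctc
Cdc20, chr4:118437344-118437463, minus strand: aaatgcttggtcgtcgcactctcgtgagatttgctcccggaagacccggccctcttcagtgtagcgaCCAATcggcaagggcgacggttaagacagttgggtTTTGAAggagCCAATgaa
Cdk1, chr10:69352913-69353032, minus strand: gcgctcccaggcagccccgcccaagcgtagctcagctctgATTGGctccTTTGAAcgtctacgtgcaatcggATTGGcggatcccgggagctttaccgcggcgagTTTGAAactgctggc
Birc5, chr11:117849117-117849236, plus strand: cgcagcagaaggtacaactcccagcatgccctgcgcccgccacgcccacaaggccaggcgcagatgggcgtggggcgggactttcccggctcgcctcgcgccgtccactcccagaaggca
Hmgb2, chr8:57511723-57511842, plus strand: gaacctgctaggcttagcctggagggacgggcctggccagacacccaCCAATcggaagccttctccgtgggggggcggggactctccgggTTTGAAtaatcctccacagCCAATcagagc
Cks1b, chr3:89418292-89418411, minus strand: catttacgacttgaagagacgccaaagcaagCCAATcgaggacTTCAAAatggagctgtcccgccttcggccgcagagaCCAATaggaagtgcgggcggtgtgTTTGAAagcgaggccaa
Lbr, chr1:181842402-181842521, minus strand: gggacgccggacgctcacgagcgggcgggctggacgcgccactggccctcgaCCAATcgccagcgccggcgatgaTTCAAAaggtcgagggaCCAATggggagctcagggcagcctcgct
Cbx5, chr15:103239853-103239972, minus strand: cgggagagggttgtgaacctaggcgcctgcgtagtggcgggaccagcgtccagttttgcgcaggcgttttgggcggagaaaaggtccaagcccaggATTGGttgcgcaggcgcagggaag

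Ube2c, Cdc20, Cdk1, Hmgb2, Cks1b and Lbr show 2 CCAAT matches each beside TTTGAA in this stretch, and Top2a shows 3. Birc5, with a ratio interval from 83.6, shows neither motif in its window. Cks1b and Lbr carry both motifs at ratios of 11.9 and 1.93, and Cbx5 shows a CCAAT match alone.

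The members were also counted in cells grouped by their number of core genes. These ranges were chosen after the data were seen, and the core genes define them. Each core gene counts toward its own range, so a rise toward the fullest cells was built in. Abundance also differs, with Top2a and Mki67 holding the most UMIs of the core genes (284 and 271), so no order of appearance can be read. In the 30 cells with 3 to 9 core genes, Top2a was the core gene found most often (16 cells), before Mki67 and Cks2 (12 cells each), Cdk1 and Cenpf (10 cells each), and no cell of this range held Birc5, Ccnb2 or Kif2c. In the 9 cells with 10 to 19 core genes Top2a and Mki67 were each in 8 cells, Ccnb2 in 6 and Birc5 in 5, while Plk1 was in 1. In the 17 cells with 20 or more, Ube2c, Birc5, Top2a, Mki67, Cks2, Bub1b and Tpx2 were in all 17 and Plk1 in 14. Plk1 stood at 10.7, 14.6 and 196 CPM across the 3 ranges and Ube2c at 10.7, 87.5 and 597 CPM. Mki67 stood at 102, 627 and 1008 CPM.

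**Figure D3:**
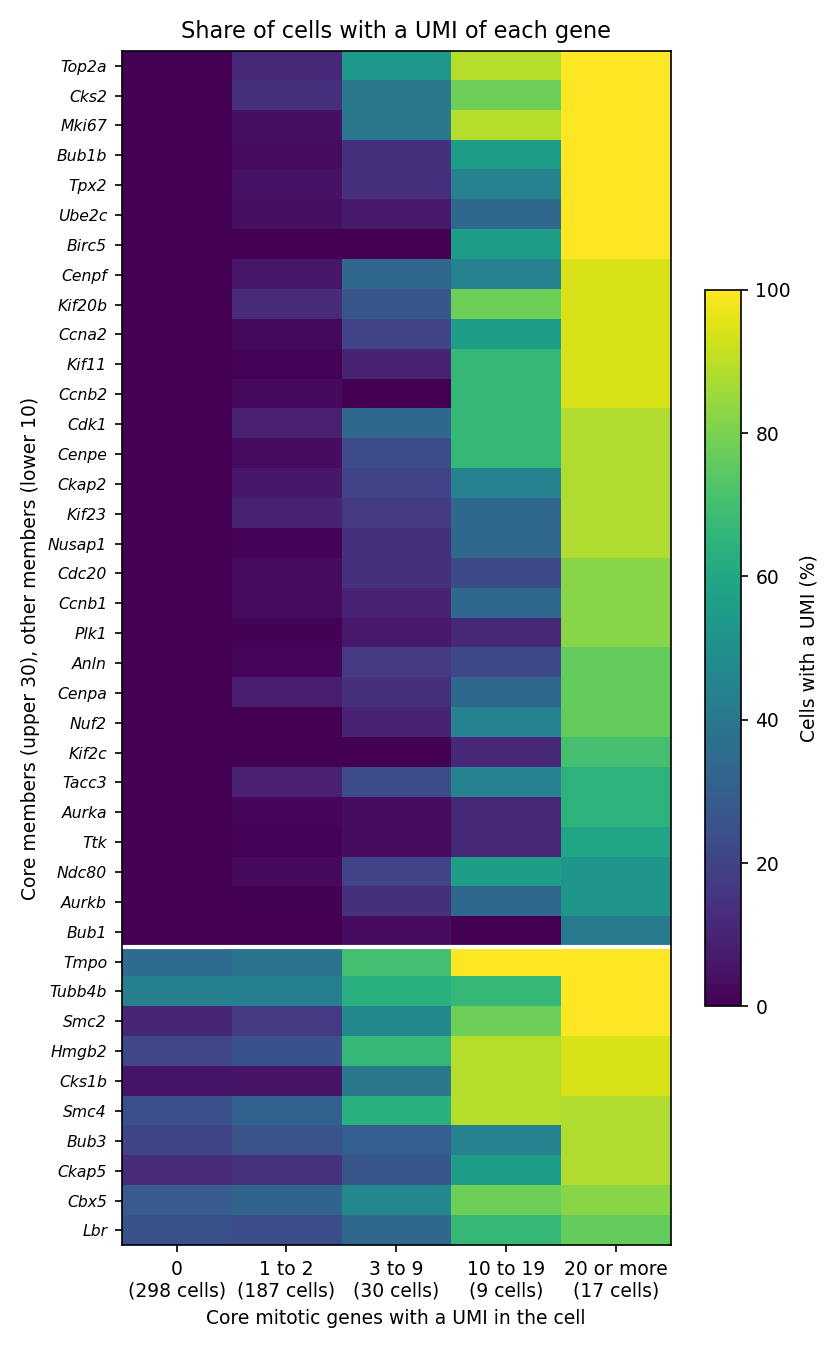
Share of cells with a UMI (colour, %) for each of the 40 genes (rows, core genes above the white line and the other 10 below) in cells grouped by their number of core genes (columns, with cells per group). The core genes themselves define the columns. Top2a, Cks2 and Mki67 are found in many cells of the 3 to 9 column, while Birc5, Ccnb2 and Kif2c are at 0 there. The other members are found in every column.

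The 10 other members did not choose these ranges, and followed them unevenly. Hmgb2 had 62.6 CPM in the 298 cells with no core gene and 268, 802 and 1314 CPM across the 3 carrier ranges. Tmpo ran from 106 CPM to 278, 438 and 607, and Smc4 from 80.4 to 204, 409 and 567. Cbx5 was 81.3 CPM in cells with no core gene and 102, 233 and 135 CPM in carriers, and Lbr 76.4 against 91, 175 and 150.5, so that neither was highest in the fullest cells. Tubb4b was at 173 CPM with no core gene, 262 and 277 CPM in the lower carrier ranges and 818 CPM in the fullest cells. Bub3 changed little before the fullest cells, with 60.1 CPM at no core gene, then 64.3, 73.0 and 246 CPM in carriers. In the fullest cells these genes share deep libraries, with a median of 9950 transcripts per cell against 4224 in the cells with no core gene.

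S phase genes, which encode replication factors, were measured in the same cells. Their list of 38 genes had a carrier ratio of 4.62 (4.33 to 4.92), higher in carriers in 8 of 8 libraries. Of the 37 with at least 5 UMIs in carriers, 27 were concentrated there. In all, 34 of 56 carriers but 24 of 485 other cells held 10 or more of them. S phase transcripts stood at 735 CPM in cells with no core gene, 4879 CPM with 3 to 9, 5413 CPM with 10 to 19 and 2864 CPM with 20 or more core genes. Their highest level was thus not in the cells with the most mitotic genes. Pcna, the replication clamp, followed with 133, 605, 686 and 296 CPM. Of other list genes with most UMIs in carriers, Mcm7, a subunit of the replicative helicase, had a ratio of 3.57 (2.82 to 4.52) and Dut, which clears dUTP, 5.64 (4.27 to 7.45). In other cells 20 or more S phase genes were held by 4 cells, against 22 carriers.

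**Figure D4:**
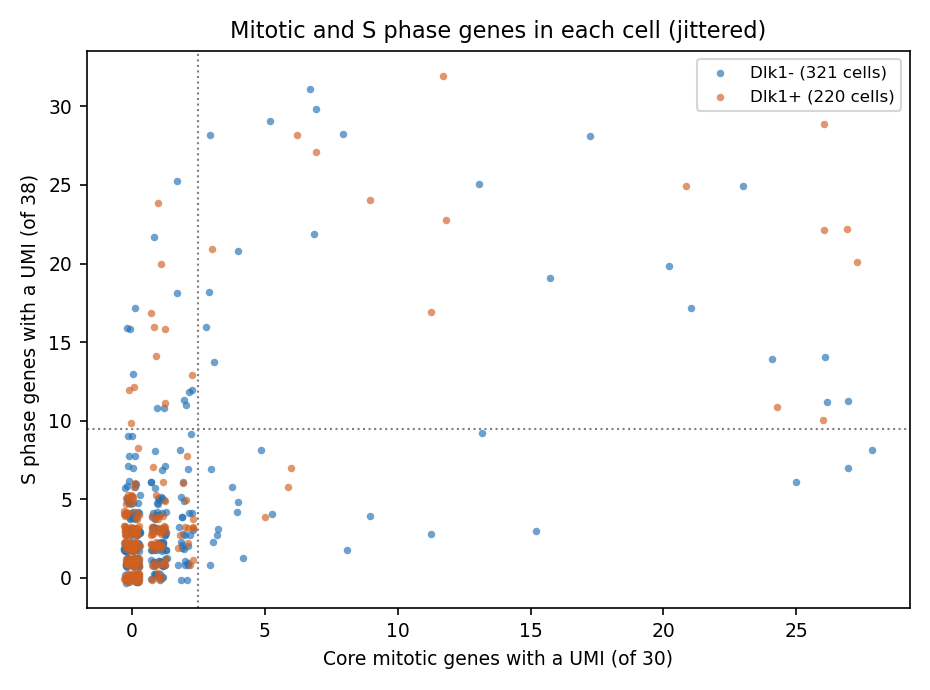
S phase genes with a UMI (y axis, of 38) against core mitotic genes with a UMI (x axis, of 30) in each of the 541 cells, with small random shifts for legibility (blue Dlk1-, orange Dlk1+). Dotted lines mark 3 core and 10 S phase genes. Cells with many S phase genes lie on both sides of the carrier limit, 34 to the right of it and 24 to the left, and cells of both sorts occur along the x axis.

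Further G2 and M genes came from a separate list of 62, of which 60 had a row. Of these, 50 of the 58 with at least 5 UMIs in carriers were concentrated there. The median gene ratio was 19 over the 56 that also had UMIs in other cells (20.04 with the other 2 set against 3 counts). The ratio of the list's summed UMIs was lower, 4.57 (4.37 to 4.77), since a sum gives most weight to its abundant genes. Those with most UMIs in carriers were Tubb5, a beta tubulin (ratio 3.64, 3.31 to 4.01), Stmn1, which destabilises microtubules (4.13, 3.65 to 4.68), and Hmgb1, a chromatin protein (2.00, 1.77 to 2.26). A list of 14 genes of G0 and G1 control had a ratio of 1.00 (0.927 to 1.08) and none was concentrated in carriers. Within it Cdk6 and Cdk4, kinases of G1, were at 2.09 (1.77 to 2.47) and 1.85 (1.55 to 2.20), and Ccnd2, a D-type cyclin, at 0.531 (0.443 to 0.631).

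Carriers still held stem cell transcripts, as a lower share of their UMIs. A UMI of 3 or more of 12 stem cell markers was found in 52 of 56 carriers and 443 of 485 other cells. The list's carrier ratio was 0.587 (0.543 to 0.633), and the share was lower in carriers in all 8 libraries. Carriers were also the deeper cells (medians of 7819 and 4495 transcripts), so the ratio is no measure of the amount per cell. The list had 745 UMIs in the 56 carriers and 6055 in the 485 other cells. Hlf, a transcription factor of stem cells, was at 0.469 (0.389 to 0.562), Kit at 0.707 (0.592 to 0.841) and Meis1 at 0.769 (0.628 to 0.934). The markers were uneven. Named after their values were seen, Ly6a (Sca1) was the lowest at 0.203 (0.113 to 0.340), before Procr at 0.230 (0.127 to 0.385), and Ctnnal1 was above 1 at 1.86 (1.11 to 3.04). After thinning to 2000 UMIs, 29 of 54 carriers and 359 of 443 other cells held 3 or more. The 3 progenitor markers stood at 1.10 (0.721 to 1.64). Cd34, whose protein was gated out, had a ratio of 0.971 (0.604 to 1.5), and Flt3, a progenitor marker, 1 UMI in carriers.

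Cell 91 of Dlk1+ replicate 4 held 37287 transcripts, 26 core genes and 29 S phase genes together with 771 UMIs of S100a8, 784 of S100a9 and 161 of Mpo, all genes of myeloid granules or neutrophils, and 11 of the 12 stem cell markers. It also held all 5 Cd48 UMIs of the kept cells, although CD48 was gated out. It put the carrier ratio of the 8 myeloid markers (7 with a row) at 13.6 (12.5 to 14.9). Without it the ratio was 0.421 (0.314 to 0.554), and this is nearly all Prtn3, a granule protease named here after its values were seen. Prtn3 then had all 55 myeloid UMIs of the carriers and 700 of 719 elsewhere. It was found in 65.1% of all kept cells, and the other 6 genes with a row had 0 UMIs in carriers and 19 elsewhere. The stem cell and S phase ratios without it were 0.616 (0.569 to 0.666) and 4.82 (4.52 to 5.15), and the core level of its library fell from 1016 to 806 CPM. Its part in single results is given below where they move.

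The erythroid list had a ratio of 0.543 (0.329 to 0.855), and its genes went both ways. Epor, the erythropoietin receptor, had 8 of 14 UMIs in carriers (ratio 6.35, 1.93 to 22.2). Hbb-bt, a globin, had 8 of 56 (ratio 0.835, 0.341 to 1.78) and Hbb-bs 2 of 35. Hba-a1, another globin named after its values were seen, had 1 of 102 (ratio 0.0494, 0.00124 to 0.281). The lymphoid list stood at 0.727 (0.317 to 1.48), with Cd79b, Ebf1 and Ms4a1 at 4, 3 and 1. The megakaryocyte list stood at 1.62 (1.39 to 1.89), led by Pf4 (65 UMIs, ratio 8.22), Itga2b (60, ratio 2.71) and Vwf (56, ratio 0.660), and a stroma and endothelium list at 1.56 (1.03 to 2.32), with Col1a2, Pecam1 and Cxcl12 at 14, 11 and 7 UMIs. Pf4 UMIs occurred in 21.4% of carriers and 5.98% of other cells. Of its 65 carrier UMIs 57 lay in 4 Dlk1- cells (22, 12, 12 and 11), and 8 further carriers held 1 each. Vwf was found in 44.2% of all kept cells. Whether cells of another type had a part in the mitotic signal was not tested beyond these values.

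Between the sorts the number of carriers was compared per library. Carriers made up 15, 6, 12 and 6 cells of the Dlk1- libraries 1 to 4 (15.6%, 16.7%, 12.6% and 6.38%). In the Dlk1+ libraries they were 6, 3, 2 and 6 cells (6.98%, 11.1%, 7.69% and 7.41%). The ranges of the sorts overlap: Dlk1- replicates 1 to 3 lay above all Dlk1+ libraries, and Dlk1- replicate 4 lay below all of them. Over all UMIs the means were 12.8% ± 4.62 in Dlk1- and 8.30% ± 1.90 in Dlk1+ (SD, n = 4), a difference of -4.53 points. On cells thinned to 2000 UMIs the shares were 9.68%, 14.7%, 7.61% and 1.14% in Dlk1- and 4.88%, 8.0%, 0% (of 4 cells, Wilson 95% interval up to 49.0%) and 7.59% in Dlk1+. The means were 8.28% ± 5.62 and 5.12% ± 3.68 (SD, n = 4), a difference of -3.16 percentage points (Dlk1+ minus Dlk1-) that is smaller than the spread between libraries of a sort. The difference was -5.75 points within plate 5 (replicates 1 and 2), -0.58 within plate 6 (replicates 3 and 4), and 0.44 when cells were thinned to 1000 UMIs instead. The plate 6 value weighs the 0% of 4 cells in Dlk1+ replicate 3 equally with the 7.59% of replicate 4, beside a Dlk1- mean of 4.37%.

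Summed levels of the core genes were 1085, 1538, 688 and 382 CPM in Dlk1- and 660.1, 1650, 666 and 1016 CPM in Dlk1+ (923 ± 501 and 998 ± 465, SD, n = 4). The libraries of the sorts interleave, and replicate 2 was the highest of both. Outside carriers the core level was 110 ± 11.5 CPM in Dlk1- and 95.4 ± 26.3 CPM in Dlk1+. The other 10 members summed to 1175 ± 181 CPM in Dlk1- and 1005 ± 200 CPM in Dlk1+, and outside carriers to 728 ± 106 and 591 ± 125.8.

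In the test across genes (limma-voom on library sums, false discovery rate 0.05), 0 of the 25 members that passed the filter on low counts differed between the sorts. Of all 5666 genes tested 2 did (0.0353%), Dlk1 itself among them. At an unadjusted p under 0.05 there were 2 members, against 6.51% of all genes, and no member's libraries were fully separated between the sorts, against 3.14% of all genes. The fitted difference was above 0 for 13 members and below 0 for 12, with a median of 0.06 (log2, Dlk1+ minus Dlk1-) beside -0.04 over all genes. This split was 7 and 18 with limma-trend and 5 and 19 without Dlk1- replicate 4. The 15 members not tested were all core genes, among them all 6 mitotic kinases. They ran from 0.547 CPM (Bub1, Dlk1+) to 32 CPM (Plk1, Dlk1+) as means of a sort.

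The chromosome gene Top2a was at 103, 135, 84.2 and 50.4 CPM in the Dlk1- libraries 1 to 4 and at 124, 244, 307 and 109.6 CPM in the Dlk1+ libraries. The sorts overlap through Dlk1- replicate 2, and the highest value came from 2 cells of the shallow Dlk1+ replicate 3. The fitted difference was 0.89 ± 0.37 (log2, SE) with an adjusted p of 0.694 by limma-voom. Hmgb2 was at 302, 261, 166 and 162 CPM in Dlk1- and at 60.7, 87.9, 76.8 and 226 CPM in Dlk1+. Of the Dlk1+ libraries 3 lay below all Dlk1- libraries, and replicate 4 lay among them. Its difference was -0.92 ± 0.35 (adjusted p of 0.694 by limma-voom). Outside carriers Hmgb2 stood at 77.0, 64.0, 60.5 and 109 CPM in Dlk1- and 18.7, 39.3, 0 and 69.7 CPM in Dlk1+ (77.6 ± 22 and 31.9 ± 29.9), and within carriers at 827 ± 159 and 611 ± 349 CPM (SD, n = 4). Both parts of the cells thus had the lower mean in Dlk1+, with overlapping libraries. The 0 in Dlk1+ replicate 3 outside carriers allows up to 86.3 CPM in those cells.

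Nusap1, of the spindle, had the largest positive difference, 0.96 ± 0.63 (adjusted p of 0.812 by limma-voom), from 27.1, 60.8, 12.6 and 4.19 CPM in Dlk1- and 15.2, 97.6, 0 and 39.4 CPM in Dlk1+. Cyclin Ccna2 was at 46.4, 60.8, 29.5 and 14.7 CPM against 22.8, 117, 25.6 and 70.1 CPM, a difference of 0.68 ± 0.47 (adjusted p of 0.815 by limma-voom). In both genes Dlk1+ replicate 2 was the highest and the ranges overlap widely. The centromeric Cenpa was at 46.4, 69.5, 23.1 and 25.2 CPM in Dlk1- and 7.58, 39.0, 0 and 30.7 CPM in Dlk1+ (-0.82 ± 0.48, adjusted p of 0.786 by limma-voom). Heterochromatin gene Cbx5 was even in Dlk1-, at 102, 86.8, 86.2 and 111 CPM, and uneven in Dlk1+, at 85.9, 19.5, 0 and 89.8 CPM. Its 2 low values belong to the Dlk1+ libraries with the fewest transcripts, and its difference was -0.71 ± 0.41 (adjusted p of 0.778 by limma-voom).

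The most abundant other members showed no separation. Tubb4b was at 188, 308, 213 and 195 CPM in Dlk1- and 169, 332, 512 and 221 CPM in Dlk1+. Tmpo was the steadiest, at 170.1, 174, 162 and 151 CPM and at 129, 146, 154 and 193 CPM. Smc4 was at 119.9, 187, 147 and 124 CPM and at 91, 87.8, 25.6 and 162 CPM. In each case at least 1 Dlk1+ library lay within the Dlk1- range.

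The core genes with most UMIs also overlapped between the sorts. Mki67 was at 143, 169.5, 73.7 and 25.2 CPM in Dlk1- and 101, 137, 25.6 and 123 CPM in Dlk1+. Its lowest Dlk1- value was in replicate 4, where 1 cell held 10 or more core genes. Cks2 was at 63.8, 130.3, 58.9 and 41.9 CPM and at 20.2, 87.8, 25.6 and 63.5 CPM, and Ube2c at 59.9, 113, 29.5 and 27.3 CPM and at 40.5, 29.3, 0 and 70.2 CPM. Cdk1 was at 50.3, 43.4, 29.5 and 10.5 CPM and at 37.9, 87.8, 0 and 46.0 CPM. In Dlk1- libraries these 4 genes were lowest in replicate 4, and in Dlk1+ libraries Mki67, Cks2 and Cdk1 were highest in replicate 2 and Ube2c in replicate 4. Kif20b, at 48.3, 52.1, 29.4 and 16.8 CPM and at 20.2, 9.76, 76.8 and 61.3 CPM, and Cenpf, at 27.1, 69.5, 35.8 and 21 CPM and at 40.5, 19.5, 25.6 and 30.7 CPM, overlapped as well.

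**Figure D5:**
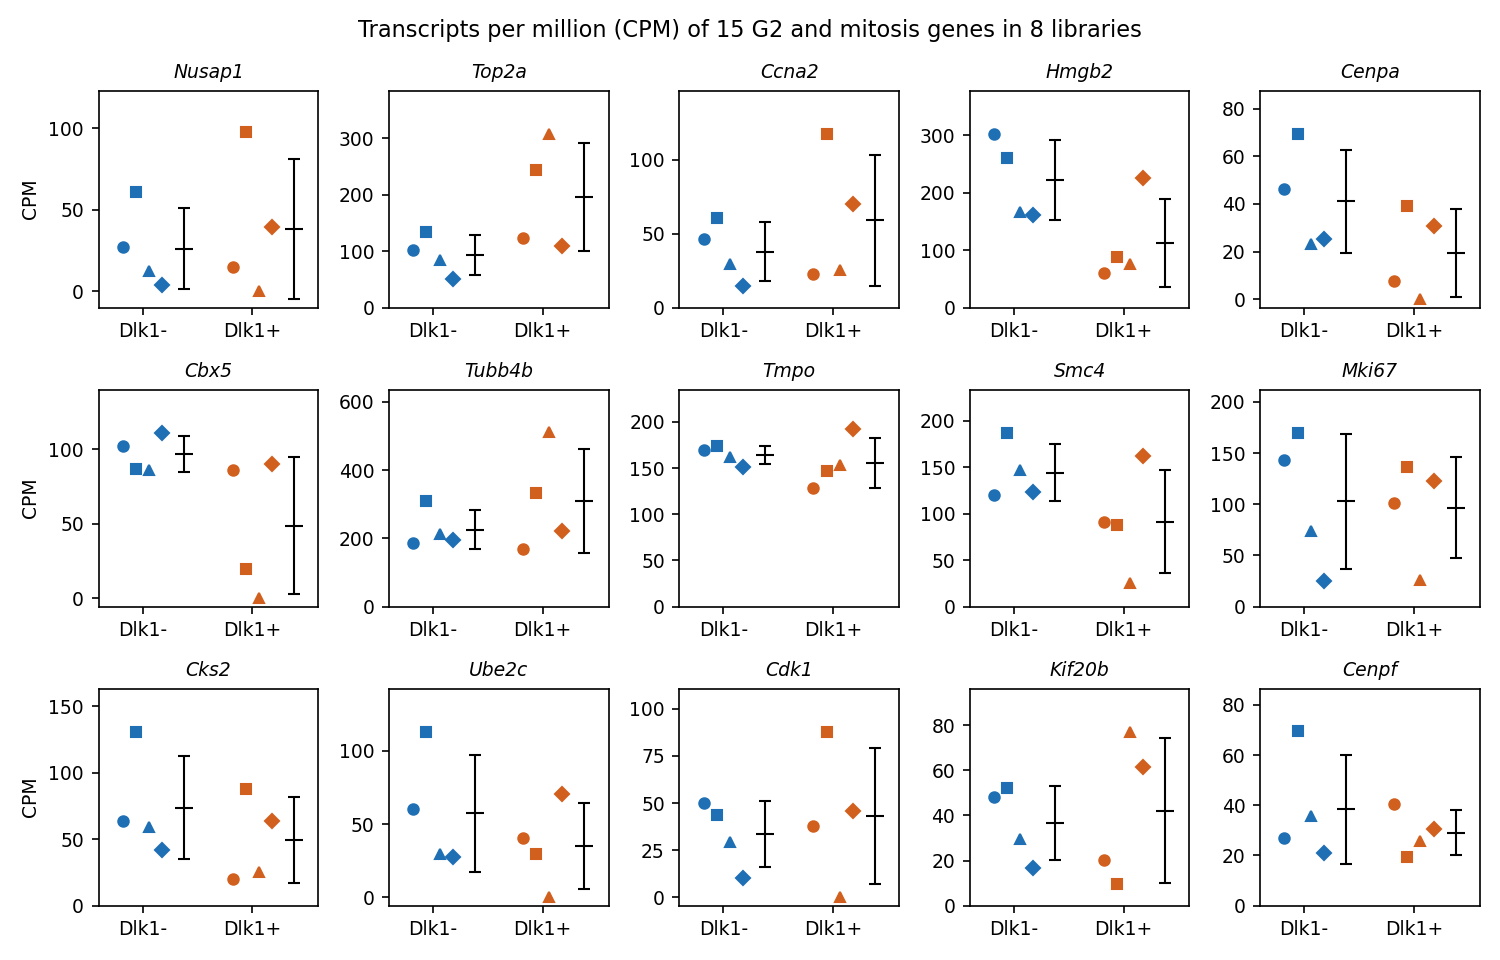
Levels in CPM (linear axis) of 15 members in the 4 Dlk1- (blue) and 4 Dlk1+ (orange) libraries; circle, square, triangle and diamond stand for replicates 1 to 4, and the black bar gives mean ± SD of the sort. Ranges of the sorts overlap in every panel. Top2a reaches 307 CPM in Dlk1+ replicate 3, and Hmgb2 lies at 60.7 to 87.9 CPM in 3 Dlk1+ libraries.

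The other cell cycle lists were fitted in the same test. Of 60 further G2 and M genes 21 were tested and 0 called, with 16 above and 5 below 0 and a median of 0.28. Of 38 S phase genes 21 were tested and 0 called, with 18 above and 3 below 0 and a median of 0.28, and of 14 genes of G0 and G1 control 11 were tested and 0 called (5 above, 6 below, median -0.18). Over all genes tested 2541 lay above and 3125 below 0, with a median of -0.04. How far the splits of these lists depend on the processing or on single libraries was not tested. At an unadjusted p under 0.05 there were 5, 2 and 2 genes of these lists, beside the 6.51% of all genes. Stmn1 was at 395, 382, 263 and 239 CPM in Dlk1- and 395, 850.5, 1409 and 440.5 CPM in Dlk1+, and Tubb5 at 677, 617, 552 and 560.1 CPM and at 531, 1527, 2126 and 605 CPM. Both were highest in Dlk1+ replicates 3 and 2, the libraries with the fewest transcripts, and the part of depth in this was not tested. Fitted differences were 1.03 for Stmn1, 0.67 for Tubb5, -0.51 for Hmgb1, 0.12 for Pcna, 0.71 for Mcm7, -0.04 for Mcm6, 0.41 for Ccnd2, 0.84 for Cdk4 and -0.24 for Cdk6, none past the threshold.

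Within the Dlk1+ sort, Dlk1 transcripts were compared between carriers and other cells as a description. A Dlk1 UMI was found in 6 of 17 carriers (35.3%) and in 147 of 203 other cells (72.4%). By library this was 3 of 6, 1 of 3, 0 of 2 and 2 of 6 carriers against 56 of 80, 21 of 24, 9 of 24 and 61 of 75 other cells, so that the share was lower in carriers in each, although carriers were the deeper cells. After thinning it was 2 of 15 against 99 of 175. In the Dlk1- sort, taken without the surface protein, 1 of 39 carriers (2.56%) and 17 of 282 other cells (6.03%) held a Dlk1 UMI.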

How the data were processed

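The members, roles and gene lists were chosen with earlier results of these data known. The authors deposited 1 table of estimated transcript counts for each library, with genes in rows and cell barcodes in columns. Inverting the usual correction for UMI collisions (4096 possible UMIs) gave whole UMI counts, which were used for shares, carriers and thinning. Library sums and CPM used the estimated counts as deposited. Per the submitters' processing notes, BWA 0.6.2-r126 and the build mm10 were named. The annotation, the counting tool and read filters are not given in the sources used here. Barcodes of the library's own set with at least 1000 transcripts were kept, without 10 barcode numbers (17, 20 to 24 and 29 to 32) that were left out by the rule for the set. The plate of a library comes from the name of its table. Sums per library were rounded and tested with limma-voom (limma 3.58.1, R 4.3.3) with trimmed-mean scaling and Benjamini-Hochberg adjustment. A gene was tested if at least 4 libraries reached the CPM that a count of 10 has in a library of median size, and its total reached 15. A count model was not run, since the unit could not be read from the tables automatically. The script was tested on simulated data. Genes named were those past the threshold, the 3 largest differences in each direction, the 6 members with the highest mean CPM, the 8 core genes with most UMIs, and the 3 genes with most UMIs of each list. Carrier ratios used Python 3.11.15 with an exact interval.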

Additional observations from a re-analysis of the deposited data

Results flagged for a closer look

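Hmgb2 in Dlk1+ replicate 4, at 226 CPM, stood apart from the other Dlk1+ libraries, which held 60.7 to 87.9 CPM. Its gap to the nearest library was 0.836 of the range, above Dixon's 95% critical value for 4 values. This was 1 of 38 groups of 4 libraries looked at, where chance flags about 1 in 20.

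Barcodes outside the kept cells also held core mitotic UMIs. Unused barcodes held 39 and own barcodes under 1000 transcripts held 13, both above the 3 counts that 0 allows. The 10 left-out barcode numbers make up 40 barcodes in the Dlk1- libraries, where they lie on the unused set. Of these 40, 5 reached 3 or more core genes, against 0 of the 728 other unused barcodes. In the Dlk1+ libraries, where the numbers lie on the own set, 5 of 40 did so. The 40 barcodes of the Dlk1- libraries held 47 core UMIs, led by Mki67 with 7 and Ccnb2, Cdk1 and Ube2c with 5 each.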

How the results depend on the processing

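The count of members called between the sorts was 0 in all 22 alternatives, as in the reported test, while all genes called ran from 0 with limma-trend to 19 without Dlk1+ replicate 4 (2 reported). Leaving out each library gave 0 members called throughout. The number of members concentrated in carriers was 36 in the report and 32 to 38 over 17 alternatives, and 35 to 36 with a library left out. The number of members found in most cells was 0 at 50% of cells, and 7 at 25% of cells. It was 0 in the other 14 alternatives. The difference in the share of cells with 3 or more core genes was -3.16 points, between -5.75 and 0.44 over 19 alternatives, and above 0 in 1 of them, thinning to 1000 UMIs. The minimums of 500 and 2000 transcripts per cell were bound to repeat -3.16, since thinning already needs 2000 UMIs. With a library left out the difference ran from -5.55 to -1.02, the latter without Dlk1- replicate 2.

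The log2 difference of Nusap1 turned to -0.23 with limma-trend on log2(CPM + 1). Top2a stayed between 0.29 and 1.27 (adjusted p by limma from 0.173 to 0.960) and Hmgb2 between -1.41 and -0.65 (0.121 to 0.960), both with the lowest p without Dlk1+ replicate 4. Leaving out cell 91 of Dlk1+ replicate 4, chosen after the data were seen, gave 0 members called, -1.10 for Hmgb2 and a share difference of -3.46 points.

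The titles share replicate numbers. Deviations of same-numbered libraries from the means of their sorts correlated at 0.0298 to 0.0410, and 8 of 8 libraries correlated best with their own number. Whether the numbers pair the libraries is not labelled, and the reported test did not pair them. With a replicate block 0 members were called and 1 gene in all. Shallow libraries limit these values: Dlk1+ replicate 3 keeps 4 cells after thinning to 2000 UMIs.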
